A study of Homo sapiens with 8 samples.

Results

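Negative feedback on MAP kinase signalling was read from 10 genes in RNA-seq libraries of NB4 cells. They were the 7 dual-specificity phosphatase genes DUSP1, DUSP2, DUSP4, DUSP5, DUSP6, DUSP10 and DUSP16 and the 3 Sprouty family genes SPRED1, SPRED2 and SPRY2. They were chosen by symbol, and all 10 were among the 37526 gene names listed for every library. NB4 is a line of acute promyelocytic leukemia (APL) cells in which the fusion protein PML/RARα is present, and all-trans retinoic acid (ATRA) drives it towards granulocytes. The study asked how silencing KDM3B, a histone demethylase, changes NB4 cells before and after ATRA. There were 4 groups of 2 libraries each. The shNC group was the control cells without ATRA, and the shKDM3B group was cells with a stable short hairpin RNA against KDM3B without ATRA. The shNC+ATRA and shKDM3B+ATRA groups were the same kinds of cells after 1 µM ATRA for 24 or 48 h, with no record of which time applied to which library. The concentration is that of the labels, and the methods give it in another unit. The control vector was an empty pLVX-shRNA2-puro vector in the labels and a scrambled hairpin in the methods. All 8 libraries came from transduced cells, and which of the study's KDM3B hairpins was sequenced was not given. The methods give 2 replicates of the RNA-seq experiment but not whether these were separate cultures, so the P-values below measure the spread between these libraries, which may be technical.

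Growth factor receptors activate RAS, which switches on the kinases RAF, MEK and ERK in turn, while stress and cytokine signals reach the kinases JNK and p38. Dual-specificity phosphatases remove the activating phosphates from ERK, JNK and p38, and Sprouty and Spred proteins act further up, between the receptors and RAF. Several of these inhibitors are themselves transcribed in response to ERK, so their RNA is often read as a trace of how active the pathway has been. In myeloid cells ERK signalling accompanies the response to retinoic acid.

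The libraries held between 19444480 and 33017787 counts on genes without ATRA and between 9708739 and 16882512 with ATRA. Of the reads on genes, outside any feature or ambiguous between genes, those outside features made up 8.49% to 9.62% in each library without ATRA. They made up 9.36% in shNC+ATRA replicate 1, 50.0% in shNC+ATRA replicate 2, and 51.4% and 51.0% in the shKDM3B+ATRA libraries. This split runs through the shNC+ATRA group, so values within 1 side of it are given beside the results that rest on it. In shKDM3B cells the split and the ATRA treatment cannot be told apart. The libraries also differed in the gene names listed, 56470 without ATRA and 56609 with ATRA, of which 37526 were shared. In both kinds of cells this difference and ATRA cannot be told apart, and its part in the ATRA comparisons was not tested. KDM3B was at 187 and 188 CPM (counts scaled to library size) in shNC, 76.3 and 86.1 in shKDM3B, 196 and 121 in shNC+ATRA, and 52.4 and 57.3 in shKDM3B+ATRA, so every shKDM3B library lay below every shNC library. The granulocyte precursor markers MPO, CTSG, CD33 and CEBPE were at 1 CPM or more in every library (4 of 7 markers), whereas ELANE, PRTN3 and AZU1 stayed at or below 1.47 CPM. The 3 erythroid markers, MS4A1, KRT19 and CDH1 were at 0 throughout, and the 3 T cell markers summed to at most 1.47 CPM. The B cell markers summed to 5.02 to 5.12 CPM in shNC and 3.65 to 4.51 CPM in shKDM3B, and with ATRA to 20.9 to 24.1 and 13.6 to 16.2 CPM, with CD79A at up to 16.4 CPM, and the epithelial marker EPCAM was at 13.0 to 18.9 CPM.

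Promoter sequences were looked up for all 10 genes and are shown for members that rose or fell with ATRA in both kinds of cells, so that both directions can be compared. RefSeq (GRCh38.p14) held windows of 300 bases around a transcription start, reaching further before it than after it, for 8 of the 10 genes, 12 windows in all, and DUSP4 and DUSP5 were not among them. The 4 windows below belong to DUSP6 and SPRY2, which rose with ATRA, and to DUSP2 and DUSP10, which fell. All lie on the minus strand and are written in the direction of transcription. Capitals mark matches on either strand to the 5 motifs searched.
DUSP6, chr12:89352452-89352751: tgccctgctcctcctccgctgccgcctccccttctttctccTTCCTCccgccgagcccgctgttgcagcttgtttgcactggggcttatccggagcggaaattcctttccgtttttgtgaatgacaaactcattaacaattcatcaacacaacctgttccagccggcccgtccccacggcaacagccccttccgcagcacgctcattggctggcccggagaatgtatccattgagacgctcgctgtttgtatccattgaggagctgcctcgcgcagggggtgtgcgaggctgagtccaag
SPRY2, chr13:80341077-80341376: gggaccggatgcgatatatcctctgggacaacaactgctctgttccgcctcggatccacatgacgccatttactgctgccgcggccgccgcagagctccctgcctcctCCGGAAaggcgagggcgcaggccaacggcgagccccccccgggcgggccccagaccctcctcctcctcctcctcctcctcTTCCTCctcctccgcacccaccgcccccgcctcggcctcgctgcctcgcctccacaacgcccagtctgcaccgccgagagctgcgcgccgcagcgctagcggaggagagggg
DUSP2, chr2:96145391-96145690: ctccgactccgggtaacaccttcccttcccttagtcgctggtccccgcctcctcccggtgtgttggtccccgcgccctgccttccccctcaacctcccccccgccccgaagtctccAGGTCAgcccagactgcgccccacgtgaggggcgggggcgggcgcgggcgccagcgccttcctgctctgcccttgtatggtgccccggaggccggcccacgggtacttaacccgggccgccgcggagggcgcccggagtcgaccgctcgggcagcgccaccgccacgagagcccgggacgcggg
DUSP10, chr1:221736851-221737150: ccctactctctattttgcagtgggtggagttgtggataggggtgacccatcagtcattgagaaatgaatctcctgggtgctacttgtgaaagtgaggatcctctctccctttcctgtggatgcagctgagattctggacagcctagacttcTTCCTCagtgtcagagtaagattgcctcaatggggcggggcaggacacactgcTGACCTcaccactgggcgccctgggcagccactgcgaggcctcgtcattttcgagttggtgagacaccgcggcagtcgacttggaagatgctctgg
The DUSP6 window held the PU.1 letters GAGGAA on the opposite strand at -209 from the start. The first of the 3 SPRY2 windows held the ETS letters CCGGAA at -142 and GAGGAA on the opposite strand at -62. The DUSP2 window held the retinoic acid receptor hexamer AGGTCA at -134, and the second DUSP10 window held it on the opposite strand at -46, with GAGGAA on the opposite strand at -99. The first DUSP10 window held none of the 5 motifs.

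Over the 12 windows, GAGGAA occurred in 6 and in 27.9% of 35116 promoter windows of the same length. AGGTCA occurred in 3 of the 12 windows and in 13.8% of all promoters, the remaining window being that of DUSP16. CCGGAA occurred in 1 of 12 and in 17.2% of all, the AP-1 letters TGANTCA in 1 of 12, in SPRED2, and in 7.71% of all, and the cyclic AMP response element TGACGTCA in 1 of 12, in DUSP1 at -125, and in 1.85% of all. The ETS and PU.1 letters share GGAA but differ before it, so that no match was counted under both. GC content of the windows ran from 39.3% to 76.3%, beside a median of 58.7% over all promoters. These matches describe letters and not bound sites.

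Scaled by exon length, DUSP6 was the most abundant of the 10 transcripts in every group by its mean. DUSP6 encodes the cytoplasmic phosphatase that is selective for ERK. Its mean was 25.4 CPM per kilobase of exon in shNC, 15.2 in shKDM3B, 76.5 in shNC+ATRA and 52.9 in shKDM3B+ATRA. Without ATRA the libraries of DUSP6 overlapped those of DUSP2, the next in order. In shNC the DUSP6 libraries lay above those of SPRED2 and SPRY2, and DUSP2 overlapped both. In shKDM3B these 4 genes overlapped one another, so that their order could not be told from the spread between libraries. With ATRA the order was DUSP6, SPRY2 and SPRED2 in both kinds of cells, and these 3 did not overlap one another.

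DUSP5, the nuclear phosphatase selective for ERK, moved furthest in that order. It ranked 9 of 10 in both groups without ATRA, at a mean of 0.641 CPM per kilobase in shNC and 1.00 in shKDM3B. In shNC+ATRA it ranked 4, at 8.97, where its libraries overlapped those of DUSP2 at 6.51. In shKDM3B+ATRA it ranked 5, at 3.80, below DUSP2 at 5.37 without overlap. DUSP1 was last in 3 of the 4 groups, at 0.303 to 0.960 over all 4, and rested on 3 to 65 counts per library. The summed level of the 10 genes was 73.8 CPM per kilobase in shNC, 61.5 in shKDM3B, 134 in shNC+ATRA and 97.6 in shKDM3B+ATRA. DUSP6 alone made up 34.5%, 24.7%, 57.2% and 54.2% of these sums.

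**Figure D1:**
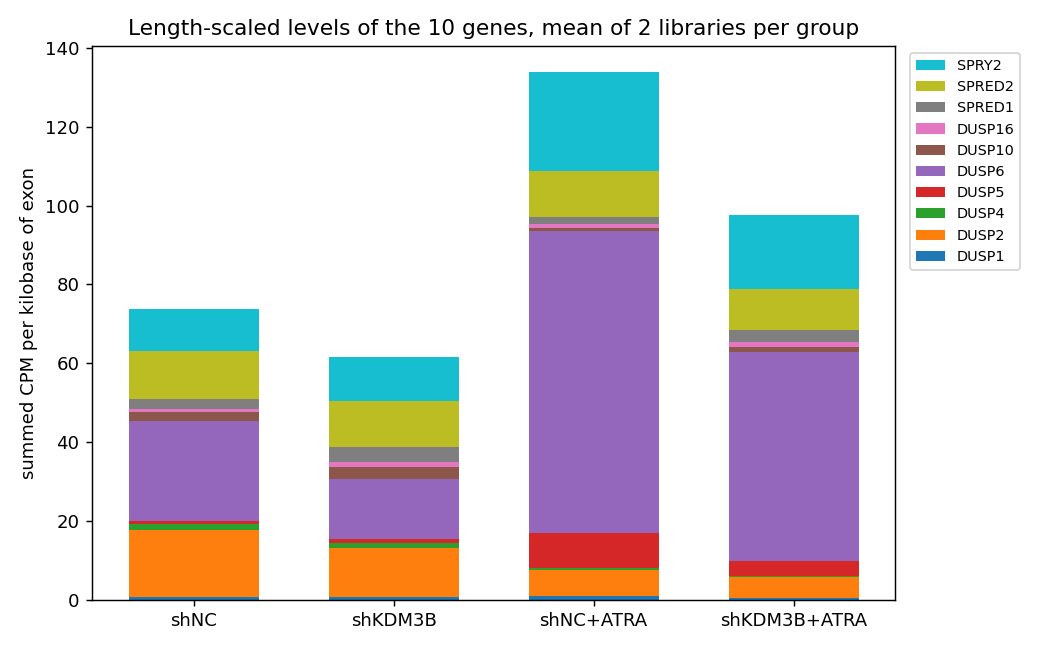
Mean length-scaled level of each of the 10 genes in each group, in CPM per kilobase of exon, stacked so that the bar height is the sum over genes (mean of 2 libraries, no error drawn). The bars reach 73.8, 61.5, 134 and 97.6, and the DUSP6 segment grows from 25.4 in shNC to 76.5 in shNC+ATRA.

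ATRA changed 6 of the 10 genes in shNC cells. DUSP5, DUSP6 and SPRY2 rose, and DUSP2, DUSP4 and DUSP10 fell (unadjusted P under 0.05 and a fold change of at least 1.5, edgeR's quasi-likelihood test). The increase of DUSP5 was 14.3-fold, that of DUSP6 3.09-fold and that of SPRY2 2.37-fold, whereas DUSP2, DUSP4 and DUSP10 were 2.55-fold, 2.66-fold and 3.46-fold lower. The same call was made for 25.9% of the 12429 genes tested, 15% higher and 10.8% lower. At an adjusted p under 0.05, 5 of the 10 genes passed, all but DUSP2 of these 6, beside 12.9% of all genes. None of the 10 passed at an adjusted p when either shNC library was left out, where the lowest edgeR adjusted p, that of DUSP5, was 0.154 without replicate 1 and 0.147 without replicate 2. The median log2 fold change of the 10 genes was 0.20, beside 0.02 over all genes tested. Since the libraries are bulk samples, fewer cells of a type and less RNA per cell cannot be told apart here or below.

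DUSP5 (ENSG00000138166, chr10:110497907-110511533, plus strand, hg38) was at 1.66 and 1.59 CPM in shNC and at 20.2 and 25.3 CPM in shNC+ATRA. It rested on 33 and 38 counts before and 330 and 274 counts after ATRA. The treated libraries lay far above the untreated ones. The log2 fold change was 3.84 ± 0.33 (SE), with an edgeR adjusted p of 0.000736. Whichever library was omitted, it lay between 3.64 and 3.99.

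DUSP6 (ENSG00000139318, chr12:89347235-89352501, minus strand) was at 82.3 and 114 CPM in shNC and at 251 and 340 CPM in shNC+ATRA. Both treated libraries exceeded both untreated ones. The log2 fold change was 1.63 ± 0.27, with an edgeR adjusted p of 0.00841. A gene on the opposite strand overlaps 28.6% of the DUSP6 exon length, and their reads cannot be told apart where counting ignored strand. None of the other 9 genes has such an overlap.

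SPRY2 (ENSG00000136158, chr13:80335976-80341126, minus strand), which restrains signalling from growth factor receptors, was at 29.8 and 39.5 CPM in shNC and at 74.2 and 86.2 CPM in shNC+ATRA. The groups did not overlap. The log2 fold change was 1.25 ± 0.24, with an edgeR adjusted p of 0.0157. Of its Sprouty family relatives, SPRED2, which brings the RAS inhibitor neurofibromin to the membrane as SPRED1 does, was at 66.3 and 68.4 CPM before and 67.6 and 62.4 CPM after ATRA. The groups overlapped, and the log2 fold change was -0.02 ± 0.20. SPRED1 was at 20.6 and 15.6 CPM before and 10.4 and 15.2 CPM after ATRA, lower in both treated libraries, with a log2 fold change of -0.47 ± 0.32 that did not pass the test.

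Among the phosphatases that fell, DUSP10 (ENSG00000143507, chr1:221701424-221742089, minus strand), which acts on JNK and p38, was at 6.22 and 6.63 CPM in shNC and at 1.35 and 2.30 CPM in shNC+ATRA. The treated libraries held 22 and 25 counts, both below the untreated ones. Its log2 fold change was -1.79 ± 0.43, with an edgeR adjusted p of 0.0363. DUSP4, a nuclear phosphatase of ERK and other MAP kinases, was at 11.0 and 12.7 CPM before and 3.86 and 4.88 CPM after ATRA. Its log2 fold change was -1.41 ± 0.34, with an edgeR adjusted p of 0.0356. For both genes the call was lost without shNC replicate 2, at -1.75 for DUSP10 and -1.31 for DUSP4.

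DUSP2 (ENSG00000158050, chr2:96143169-96145440, minus strand), a nuclear phosphatase induced in activated blood cells, was at 46.8 and 18.7 CPM in shNC and at 9.56 and 15.6 CPM in shNC+ATRA. The untreated libraries differed from each other more than replicate 2 differed from the treated ones. The log2 fold change was -1.35 ± 0.46, with an edgeR adjusted p of 0.110. Without shNC replicate 1 it was -0.57 and was not called. DUSP1, which acts on p38 and JNK, was at 0.803 and 1.59 CPM before and 1.47 and 2.40 CPM after ATRA, and the JNK phosphatase gene DUSP16 was at 4.67 and 8.43 CPM before and 7.72 and 9.49 CPM after. The groups overlapped for both, with log2 fold changes of 0.70 ± 0.55 and 0.43 ± 0.40.

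On the side of the split where few reads lay outside features, that is without shNC+ATRA replicate 2, the log2 fold changes were 3.64 for DUSP5, 1.36 for DUSP6, 1.11 for SPRY2, -1.61 for DUSP4, -1.77 for DUSP2 and -2.24 for DUSP10. All 6 remained called, and SPRED1 was then called as well, at -0.80, beside 24.7% of all genes in that fit. The summed level of 4 granulocytic maturation markers moved with ATRA, from 343 to 360.3 CPM in shNC to 2245 to 2375 CPM in shNC+ATRA. ITGAM, CYBB, FPR1 and CD52 were all higher, and most of the sum was CYBB in every group. The 7 granulocyte precursor markers, most of whose sum was MPO, went from 4501 to 5605 CPM in shNC to 1042 to 1270.4 CPM in shNC+ATRA. MPO and CTSG were lower in both treated libraries, whereas CEBPE and CD33 were higher. The sum of the B cell markers also moved with ATRA, as given above. The part of these marker lists in the changes of the 10 genes was not tested.

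**Figure D2:**
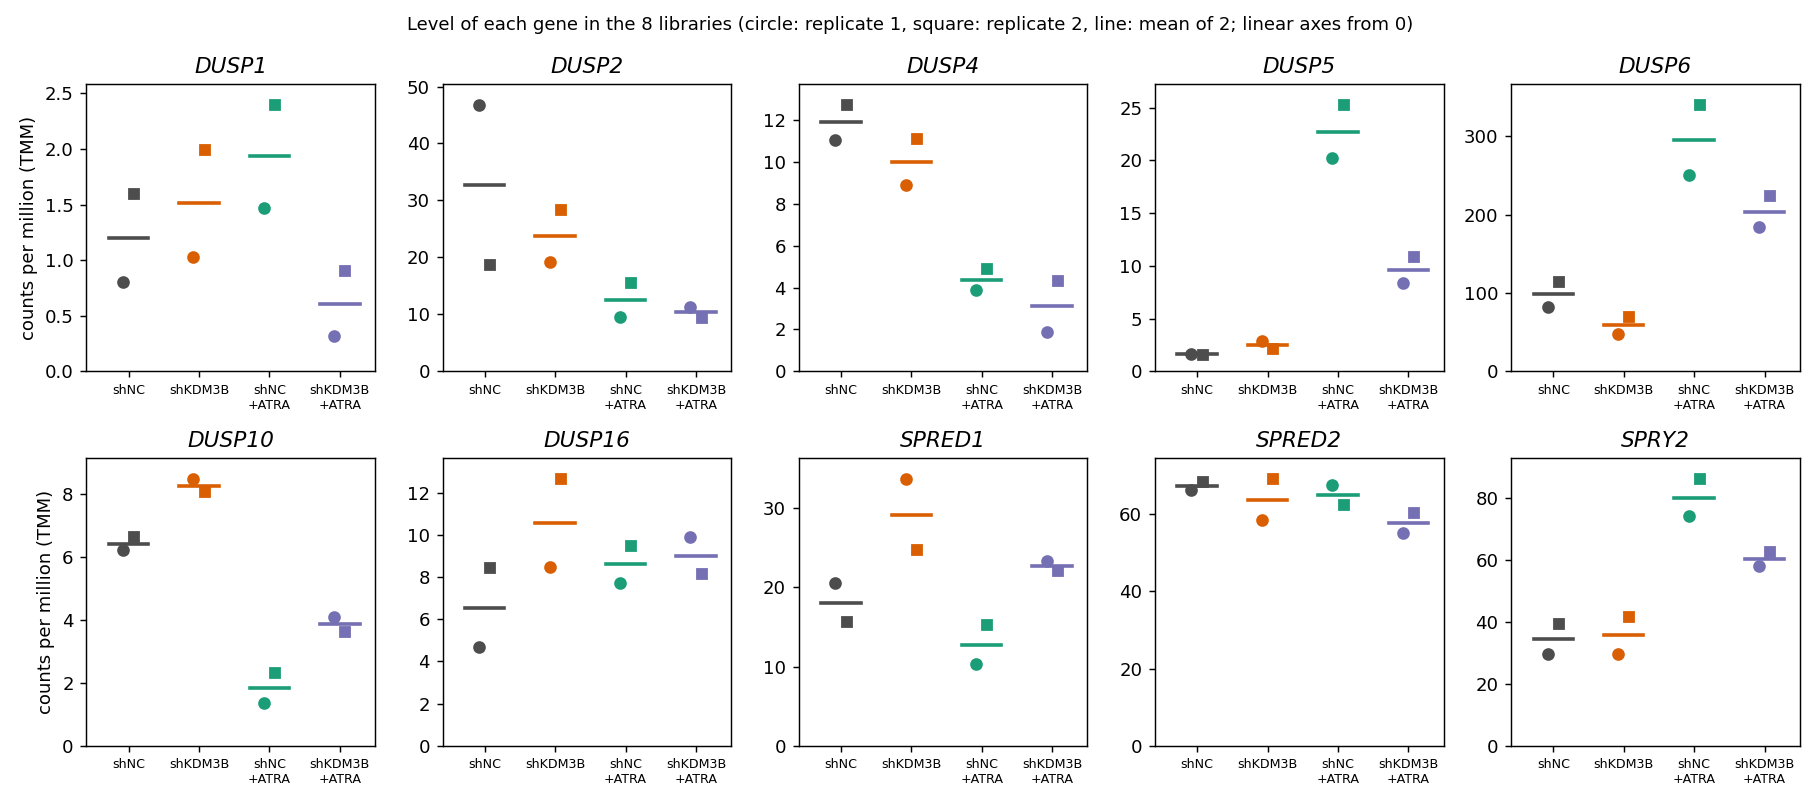
Level of each gene in every library in CPM (TMM scaling, linear axes from 0), by group, with circles for replicate 1, squares for replicate 2 and a line at the mean of 2. DUSP5, DUSP6 and SPRY2 stand higher in both ATRA groups, DUSP4 and DUSP10 lower, and SPRED1 is higher in shKDM3B than in shNC cells with or without ATRA.

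In shKDM3B cells ATRA changed the same 6 genes in the same directions, with no library shared with the comparison above. DUSP5 rose 3.97-fold, DUSP6 3.60-fold and SPRY2 1.75-fold, while DUSP2, DUSP4 and DUSP10 fell. All 6 also passed at an edgeR adjusted p under 0.05, as did 40.2% of all genes. In this comparison 42.2% of the 12756 genes tested were called, 24% higher and 18.3% lower. The median log2 fold change of the 10 genes was -0.24, beside 0.04 over all genes tested. The maturation markers summed to 188 to 202 CPM in shKDM3B and to 995 to 1205 CPM in shKDM3B+ATRA. The precursor markers summed to 8612 to 9784 CPM and 2607 to 3481 CPM, with MPO and CTSG lower and CD33 and CEBPE higher with ATRA. The part of either list in the changes of the 10 genes was not tested.

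DUSP5 went from 2.93 and 2.15 CPM in shKDM3B to 8.42 and 10.8 CPM in shKDM3B+ATRA. The groups did not overlap, and the log2 fold change was 1.99 ± 0.30, with an edgeR adjusted p of 0.000502. DUSP6 went from 47.3 and 69.9 CPM to 185 and 223 CPM, again without overlap. Its log2 fold change was 1.85 ± 0.19, with an edgeR adjusted p of 4.66e-05. SPRY2 went from 29.8 and 41.7 CPM to 58.1 and 62.8 CPM. Its log2 fold change was 0.81 ± 0.18, with an edgeR adjusted p of 0.00474, and it was 0.54, under the 1.5-fold limit, without shKDM3B replicate 1.

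DUSP4 fell from 8.88 and 11.1 CPM to 1.89 and 4.32 CPM. The log2 fold change was -1.63 ± 0.36, with an edgeR adjusted p of 0.00478. DUSP2 fell from 19.3 and 28.3 CPM to 11.3 and 9.44 CPM, a log2 fold change of -1.15 ± 0.23. The groups did not overlap, but in CPM the untreated DUSP2 libraries differed from each other more than replicate 1 differed from the nearer treated library. DUSP10 fell from 8.47 and 8.06 CPM to 4.11 and 3.62 CPM, a log2 fold change of -1.05 ± 0.26. DUSP1 was at 1.03 and 1.99 CPM before and 0.316 and 0.904 CPM after ATRA, with a log2 fold change of -1.27 ± 0.57 that was not called. It rested on 3 and 9 counts in the treated libraries, and was called without shKDM3B replicate 1, at -1.68, and without shKDM3B+ATRA replicate 2, at -2.21. On all libraries it was called with library size alone (edgeR P of 0.0486), with upper-quartile scaling (edgeR P of 0.0449) and without a filter on low counts (edgeR P of 0.0126). The replicate block described at the end also called DUSP1. DUSP16, SPRED1 and SPRED2 were not called, at -0.18 ± 0.26, -0.31 ± 0.19 and -0.09 ± 0.15.

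**Figure D3:**
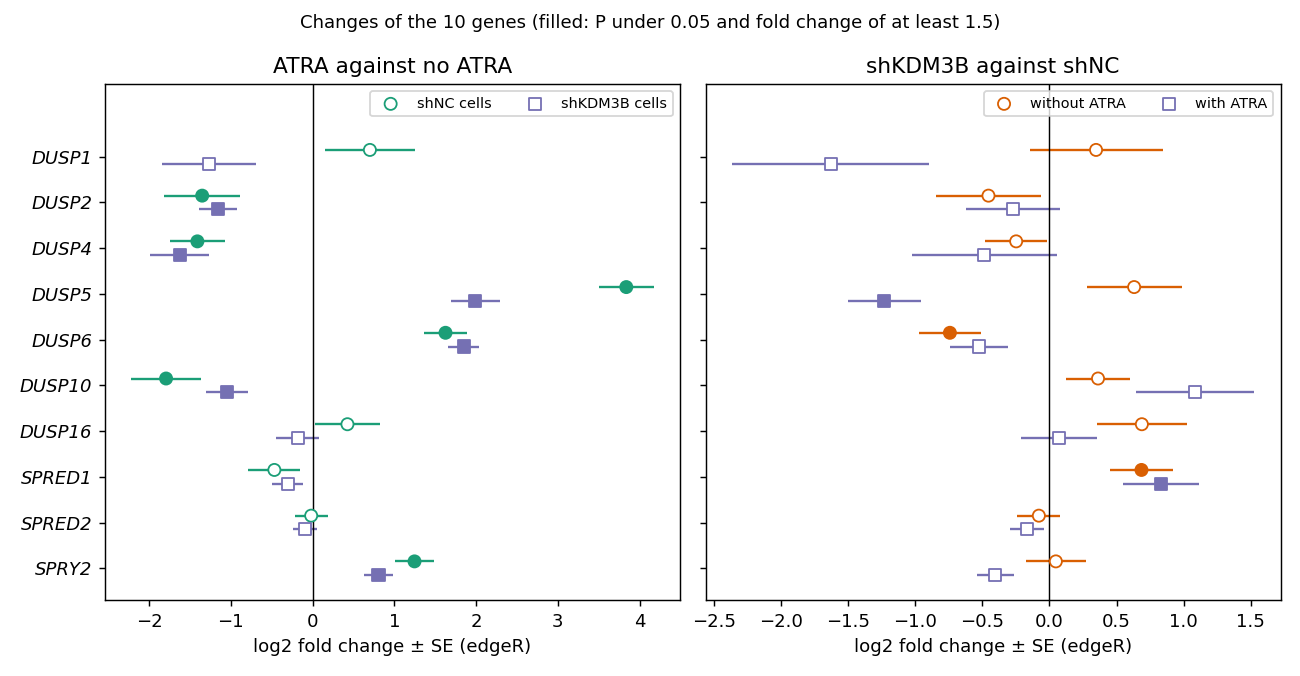
Log2 fold changes of the 10 genes with their standard errors (edgeR), for ATRA against no ATRA on the left and for shKDM3B against shNC on the right, filled where P was under 0.05 and the fold change at least 1.5. On the left the same 6 genes are filled in shNC and in shKDM3B cells, and DUSP5 stands at 3.84 in the former and 1.99 in the latter.

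The response of DUSP5 to ATRA was smaller in shKDM3B than in shNC cells. In the main fit this was the only one of the 10 genes for which the difference between the responses was called. Settings that added DUSP1 are given below. The difference between the log2 fold changes, fitted on the 8 libraries together, came to -1.87 ± 0.40, with an unadjusted edgeR P of 0.00208 and an adjusted p of 0.965. Among the 13528 genes tested, 3.99% were called, 1.27% higher and 2.72% lower. No gene passed at an adjusted p under 0.05 in edgeR, where 607 had an unadjusted P under 0.05, and DESeq2 gave 25 genes, none of them among the 10.

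With each of the 8 libraries left out in turn, the DUSP5 difference stayed between -2.07 and -1.64, with unadjusted P-values of 0.000899 to 0.011, and was called each time. Without shNC+ATRA replicate 1, so that all treated libraries had about equal shares of reads outside features, it was -2.01. The DUSP5 levels behind it were higher in both shKDM3B libraries than in shNC without ATRA and lower in both than in shNC with ATRA.

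DUSP1 gave a difference of similar size, -1.97, but with a standard error of 0.95, and it was not called in the main fit. On all libraries it was called without a filter on low counts and in the replicate block described at the end. It was called without shNC+ATRA replicate 1, at -2.29, and without shKDM3B+ATRA replicate 2, at -2.92. For DUSP10 the difference was 0.73 ± 0.46, and it was called, at 1.14, without shNC+ATRA replicate 2, as were 17.4% of all genes in that fit. For DUSP16 it was -0.62 ± 0.51. SPRY2 gave -0.45 ± 0.30, DUSP4 -0.24 ± 0.56, DUSP6 0.21 ± 0.37, DUSP2 0.18 ± 0.64, SPRED1 0.14 ± 0.37 and SPRED2 -0.09 ± 0.20. None of these 9 passed the test in the main fit. For 5 of them, DUSP2, DUSP4, DUSP6, SPRED1 and SPRED2, the sign turned when 1 library or another was left out.

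**Figure D4:**
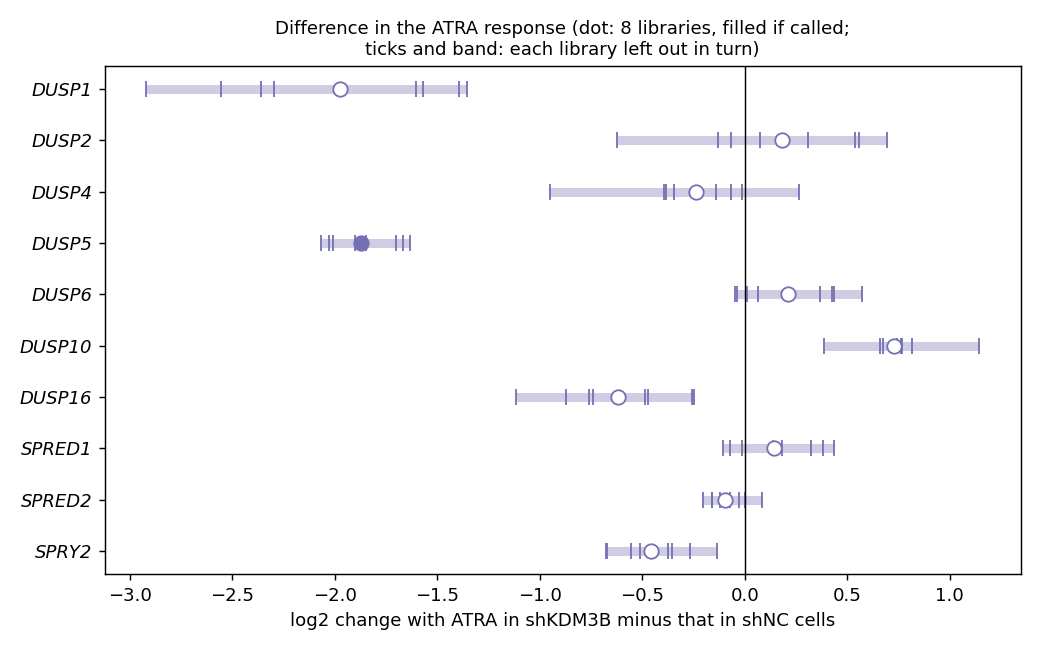
Difference in the log2 response to ATRA, shKDM3B minus shNC cells, for each gene, with a dot for the fit on 8 libraries (filled if called) and ticks and a band for the fits with each library left out. DUSP5 is filled at -1.87 and its band, from -2.07 to -1.64, does not reach 0, whereas the bands of DUSP2, DUSP4, DUSP6, SPRED1 and SPRED2 cross 0.

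Without ATRA, knockdown of KDM3B lowered DUSP6 and raised SPRED1, and no other member of the 10 was called. DUSP6 was 1.67-fold lower and SPRED1 1.61-fold higher. The call was made for 7.01% of the 13855 genes tested, 3.48% higher and 3.53% lower, and neither gene passed at an adjusted p under 0.05, as 0.0217% of all genes did. The median log2 fold change of the 10 was 0.20, beside 0.00 over all genes. The granulocyte precursor markers summed to 4501 to 5605 CPM in shNC and 8612 to 9784 CPM in shKDM3B, with MPO and CTSG higher and CD33 and CEBPE overlapping. The maturation markers summed to 343 to 360.3 CPM in shNC and 188 to 202 CPM in shKDM3B, with ITGAM, CYBB, FPR1 and CD52 all lower. In these libraries FPR1 was at no more than 0.294 CPM and CD52 at no more than 1.93 CPM. The part of either list in the differences of the 10 genes was not tested.

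DUSP6 was at 82.3 and 114 CPM in shNC and at 47.3 and 69.9 CPM in shKDM3B, both knockdown libraries lying below both controls. DUSP6 belongs to a signature of genes lower with knockdown that the study derived from these same samples, so its direction here is not independent evidence. The log2 fold change was -0.74 ± 0.23, with an edgeR P of 0.0121 and an adjusted p of 0.301. Without shKDM3B replicate 1 it was -0.49, and without shNC replicate 2 -0.48, both under the 1.5-fold limit. SPRED1 (ENSG00000166068, chr15:38252836-38357249, plus strand) was at 20.6 and 15.6 CPM in shNC and at 33.6 and 24.7 CPM in shKDM3B, without overlap. Its log2 fold change was 0.69 ± 0.23, with an edgeR P of 0.0180 and an adjusted p of 0.342, and it lost the call without the same libraries, at 0.45 and 0.50.

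Also, 3 genes were higher in both knockdown libraries than in both controls without passing the test. DUSP16 was at 4.67 and 8.43 CPM in shNC and at 8.47 and 12.6 CPM in shKDM3B, with a log2 fold change of 0.69 ± 0.34. It was called without shNC replicate 2, at 1.19, without shKDM3B replicate 1, at 0.94, and on all libraries without a filter on low counts, where its edgeR P was 0.0155. The replicate block described at the end called DUSP16 as well. DUSP5 gave 0.63 ± 0.35 and DUSP10 0.36 ± 0.24. Of the 10 genes 5 had libraries that did not overlap, 4 higher and 1 lower, beside 40.9% of the 12388 genes compared, 21.2% higher and 19.6% lower. DUSP2 depended on the library, with a log2 fold change of -0.45 ± 0.39, which was called without shNC replicate 2, at -0.96, and without shKDM3B replicate 2, at -0.78, and was 0.35 without shNC replicate 1. DUSP1, DUSP4, SPRED2 and SPRY2 were at 0.35 ± 0.50, -0.25 ± 0.23, -0.08 ± 0.16 and 0.05 ± 0.23, and their libraries overlapped.

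With ATRA, knockdown of KDM3B lowered DUSP5 2.35-fold and again raised SPRED1, by 1.78-fold. SPRED1 was the only one of the 10 called both without and with ATRA. The call with ATRA was lost with upper-quartile scaling (edgeR P of 0.0544) and without a filter on low counts (edgeR P of 0.0518). It was also lost in the replicate block described at the end. Of the 14281 genes tested 6.79% were called, 2.42% higher and 4.37% lower, and none passed at an adjusted p under 0.05 in edgeR, where 1383 had an unadjusted P under 0.05. DESeq2 gave 357 genes at an adjusted p under 0.05, with DUSP5 among them at 0.0357. The median log2 fold change of the 10 genes was -0.34, beside 0.03 over all genes.

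DUSP5 was at 20.2 and 25.3 CPM in shNC+ATRA and at 8.42 and 10.8 CPM in shKDM3B+ATRA. The groups were well apart, and the log2 fold change was -1.23 ± 0.27, with an edgeR P of 0.0130 and an adjusted p of 0.502. SPRED1 was at 10.4 and 15.2 CPM in shNC+ATRA and at 23.3 and 22.1 CPM in shKDM3B+ATRA, with a log2 fold change of 0.83 ± 0.28, an edgeR P of 0.0473 and an adjusted p of 0.513. Both calls were lost when either shKDM3B+ATRA library was left out, at -1.06 and -1.42 for DUSP5 and 0.80 and 0.87 for SPRED1.

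A further 4 genes were lower in both knockdown libraries with ATRA but were not called. DUSP6 was at 251 and 340 CPM in shNC+ATRA and at 185 and 223 CPM in shKDM3B+ATRA, a log2 fold change of -0.53 ± 0.22. SPRY2 was at 74.2 and 86.2 CPM against 58.1 and 62.8 CPM, where the log2 fold change of -0.40 ± 0.14 had an edgeR P of 0.0456 and stayed under the 1.5-fold limit. DUSP1 was at -1.63 ± 0.74 and SPRED2 at -0.17 ± 0.13. DUSP10 was higher in both knockdown libraries, at 4.11 and 3.62 CPM against 1.35 and 2.30 CPM, with a log2 fold change of 1.09 ± 0.44 that was not called here but was called in 1 fit on 8 libraries (edgeR P of 0.0140). In all 7 of the 10 genes had libraries that did not overlap, 2 higher and 5 lower, beside 50.1% of the 12227 genes compared, 24.1% higher and 26% lower. DUSP2, DUSP4 and DUSP16 overlapped, at -0.27 ± 0.35, -0.49 ± 0.54 and 0.07 ± 0.28.

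The shNC+ATRA libraries differed from each other in the share of reads outside features, and 9 of the 10 genes were lower in replicate 1 than in replicate 2, as were 50.5% of the 12227 genes compared. Without replicate 1, when the 3 remaining libraries all had about equal shares, the log2 fold changes were -1.38 for DUSP5, 0.59 for SPRED1, -0.73 for DUSP6 and -1.93 for DUSP1, and these 4 were called, as were 17% of all genes in that fit. DUSP10 was then at 0.75 and was not called. Without replicate 2 it was called, at 1.51, but so were 36.4% of all genes. The granulocytic maturation markers summed to 2245 to 2375 CPM in shNC+ATRA and to 995 to 1205 CPM in shKDM3B+ATRA. Of these sums CYBB made up 1810 to 2022 CPM and 842 to 1031.5 CPM. The precursor markers summed to 1042 to 1270.4 CPM in shNC+ATRA and to 2607 to 3481 CPM in shKDM3B+ATRA, with MPO higher, CTSG and CEBPE lower and CD33 overlapping. The part of either list in the differences of the 10 genes was not tested.

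The kinases and other inhibitors of the same pathways were read from 4 lists of 61 genes in all. The lists held other phosphatases, Sproutys and RAS inhibitors (14 genes), the RAS to ERK cascade (19), the JNK and p38 cascades (15) and known output genes of ERK (13). Without ATRA the knockdown raised 2 of the 55 genes tested and lowered none, beside 7.01% of all genes called. With ATRA it raised 2 and lowered 3 of 53, beside 6.79% of all genes. ATRA raised 10 and lowered 9 of 55 in shNC cells, where 15% of all genes were higher and 10.8% lower. It raised 6 and lowered 14 of 55 in shKDM3B cells, where 24% of all genes were higher and 18.3% lower. DUSP8, IER3 and EPHA4 were listed at 0 in every library.

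Among the other inhibitors, SPRY4, a close relative of SPRY2, fell with ATRA where SPRY2 rose. It was at 12.0 and 13.0 CPM in shNC and 0.980 and 0.461 CPM in shNC+ATRA, and at 12.7 and 19.9 CPM in shKDM3B and 0.842 and 0.603 CPM in shKDM3B+ATRA. The log2 fold changes were -4.03 ± 0.46 and -4.44 ± 0.38, with edgeR adjusted p of 0.00193 and 1.33e-05. DUSP3, a small phosphatase of ERK and JNK, fell as well, with log2 fold changes of -2.08 ± 0.28 in shNC and -2.34 ± 0.19 in shKDM3B cells. DUSP9, at 20 to 51 counts in the libraries without ATRA, had 2, 0, 0 and 0 counts with ATRA, so no fold change is given. RASA1, a RAS inhibitor, was at 43.7 and 48.6 CPM in shNC+ATRA and at 79.5 and 77.1 CPM in shKDM3B+ATRA. Its log2 fold change of 0.77 ± 0.12 was called at an unadjusted edgeR P of 0.00442, with an adjusted p of 0.502.

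In the RAS to ERK cascade ATRA raised 1 and lowered 1 of 19 genes in shNC cells and raised 2 and lowered 2 in shKDM3B cells, beside 25.9% and 42.2% of all genes called. In the JNK and p38 cascades it raised 3 and lowered 3 of 15 in shNC cells and raised 1 and lowered 4 in shKDM3B cells. KSR1, a scaffold of RAF and MEK, rose with ATRA from 11.3 and 14.1 CPM to 73.4 and 44.2 CPM in shNC cells and from 12.2 and 12.0 CPM to 63.7 and 79.6 CPM in shKDM3B cells. The log2 fold changes were 2.24 ± 0.30 and 2.62 ± 0.17. MAPKAPK2, a kinase under p38, rose by 1.69 ± 0.21 and 1.70 ± 0.15 on the log2 scale. MAPK11, a p38 isoform, fell, with log2 fold changes of -2.30 ± 0.43 and -3.07 ± 0.42, as did MAP3K1, with -1.46 ± 0.23 and -1.16 ± 0.13. HRAS was at 2.01 and 3.61 CPM in shNC and at 12.2 and 10.5 CPM in shKDM3B, and its log2 fold change of 2.01 ± 0.32 had an edgeR adjusted p of 0.105. With ATRA it held 20 or fewer counts in each library.

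Of the 10 output genes of ERK that were tested, ATRA raised 4 and lowered 1 in shNC cells and raised 2 and lowered 5 in shKDM3B cells, beside 25.9% and 42.2% of all genes called. The knockdown with ATRA raised 1 and lowered 3, beside 6.79% of all genes. PHLDA1 rose with ATRA in shNC cells from 4.21 and 3.94 CPM to 26.7 and 38.1 CPM, with a log2 fold change of 3.02 ± 0.31, and was at 5.37 and 14.6 CPM in shKDM3B+ATRA. The difference between its responses was -2.14 ± 0.63, called at an unadjusted edgeR P of 0.0108 (adjusted p of 0.999958). EGR1, an immediate early transcription factor, was at 1.76 and 2.81 CPM in shNC, 6.42 and 9.60 CPM in shKDM3B, 3.98 and 7.37 CPM in shNC+ATRA, and 2.21 and 2.21 CPM in shKDM3B+ATRA. It was thus higher with knockdown before ATRA and lower after it. For EGR1 the difference between the responses was -3.16 ± 0.61 (unadjusted edgeR P of 0.00120, adjusted p of 0.965). EGR1 lies at chr5:138465479-138469303, near the silenced gene KDM3B at chr5:138352685-138437028. Any part of that position in its changes was not tested. CCND1, which encodes cyclin D1, rose with ATRA by 0.96 ± 0.30 in shNC and 1.11 ± 0.15 in shKDM3B cells on the log2 scale. IER2, whose exons are overlapped over 52.2% of their length on the opposite strand, was at 55.3 and 60.4 CPM in shNC+ATRA and at 25.3 and 31.6 CPM in shKDM3B+ATRA, a log2 fold change of -1.02 ± 0.18. ETV4, an ETS factor, was at 66.3 and 65.2 CPM in shNC+ATRA and at 36.0 and 31.3 CPM in shKDM3B+ATRA. This was a log2 fold change of -0.96 ± 0.14. The edgeR adjusted p was 0.502 for both IER2 and ETV4.

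For the 3 members whose group means ranged most on the log2 scale, the genes with the most alike pattern over the 8 libraries were sought among 9788 genes. Likeness was the root-mean-square difference of centred log2 CPM, and the libraries share depth and treatment. For DUSP5 they were SLC5A3, at 0.27, and SLC2A5, at 0.31. For DUSP6 they were SH3BGRL3, at 0.14, and APOL2, at 0.21. For DUSP10 they were RASSF8, at 0.17, and CEP68, at 0.19. SLC5A3 was at 21.5 and 26.0 CPM in shNC, 38.5 and 32.4 CPM in shKDM3B, 166 and 188 CPM in shNC+ATRA, and 92.4 and 101 CPM in shKDM3B+ATRA, which is the order of groups seen for DUSP5.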

How the data were processed

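RNA-seq of NB4 cells gave 8 libraries, 2 per group. The authors used Trim Galore for trimming, HISAT2 for alignment to hg38 and HTSeq for counting on genes, and versions are not given in the sources used here. The deposited files hold raw counts per gene, unnormalized, and the submitters' processing notes also name Picard, SAMtools and DESeq2. The files list 56470 names without ATRA and 56609 with ATRA, of which 37526 are shared, and comparisons across ATRA used the shared names. HTSeq's summary lines were left out of library sizes. Reads outside features were 8.49% to 51.4% per library of those on genes, outside features or ambiguous.

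Counts were compared with edgeR 4.0.16 in R 4.3.3 (filterByExpr, TMM, quasi-likelihood test), in 1 fit per pair of groups and in 1 fit on 8 libraries for the difference between ATRA responses. A gene was called at an unadjusted P under 0.05 and a fold change of at least 1.5, which are the study's limits, and p-values were adjusted over all genes of a fit by the Benjamini-Hochberg method. SEs of log2 fold changes were derived from F, as size over the square root of F. CPM were scaled by TMM over 8 libraries, and both values of a group are printed in place of an SD, while length scaling used exon lengths of GENCODE v44. The scripts were tested on simulated data.

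The members and gene lists were chosen with earlier results of these data known. All 10 members are named, with KDM3B, and up to 4 called genes per list and comparison with the largest changes were eligible. Likeness was sought for the 3 members with the largest range. DESeq2 1.42.0, other scalings, other filters, a replicate block and leaving out each library were the alternatives. Depth limits precision most for DUSP1, and intervals cover the spread between libraries only. Python 3.11.15 with pandas 2.3.3 and numpy 2.4.6 served for tables. A further maturation marker is left out of the sums and not reported here.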

Additional observations from a re-analysis of the deposited data

Results flagged for a closer look

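With KDM3B knockdown, DUSP5 was higher in every library pair without ATRA and lower in every pair with ATRA. This was the only result on the 10 genes that met a rule for a closer look. The rule asked for such opposite directions or for an adjusted p under 0.05 for the difference. Without ATRA the log2 fold change was 0.63 ± 0.35 (SE), not called, and with ATRA it was -1.23 ± 0.27. The difference, tested as an interaction over 8 libraries, was -1.87, with an unadjusted edgeR P of 0.00208 and an adjusted p of 0.965. DESeq2 gave -1.84 with an adjusted p of 0.0976. It is the same difference in ATRA response as given above. Since it rests on the libraries that met the rule, its P is not separate support. Over all alternatives and left-out libraries the difference ran from -2.07 to -1.64, and the adjusted p from 0.0651 to 1.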

How the results depend on the processing

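Apart from leaving out libraries, the alternatives (3 other scalings, 2 other filters, DESeq2, 1 fit on all libraries, a replicate block and adjusted p-values) kept the direction of every result but 1. SPRY2 in the knockdown without ATRA turned from 0.05 to -0.0012 with upper-quartile scaling, neither value being called. At adjusted p under 0.05 in edgeR, the knockdown gave 0 of the 10 genes and 3 genes in all without ATRA, and 0 and 0 with ATRA. KDM3B itself, at -1.21 and -1.53, was then not called. The difference in ATRA response gave 0 and 0. Unadjusted P under 0.05 held for 1411, 1383 and 607 genes in these 3 comparisons, and DESeq2 called 278, 357 and 25 at adjusted p. ATRA in shNC cells gave 1604 genes at adjusted p. With upper-quartile scaling or no low-count filter the knockdown with ATRA called 1 of the 10, SPRED1 being lost, and without the filter the difference in response called 2 of them and 941 genes in all. Without the filter the knockdown without ATRA called 3 of the 10, DUSP16 being added, and 1402 genes in all, and DUSP6 had an edgeR adjusted p of 0.00507. With 1 fit on all libraries the knockdown with ATRA called 3 of the 10, DUSP10 being added, and 1434 genes in all. ATRA in shKDM3B cells called 7 of the 10, DUSP1 being added, with library size alone, upper-quartile scaling or no low-count filter. The causes were not tested.

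The replicate numbers are shared only as numbers. Deviations of same-numbered libraries correlated at 0.423 and 0.0348 in the knockdown without and with ATRA, and at -0.0887 and 0.211 for ATRA in shNC and shKDM3B cells, over 11690 genes. With that number as a block, the knockdown with ATRA called 1 of the 10 genes, SPRED1 again being lost, and 525 in all, and the difference in response called 2, DUSP1 being added at -2.07. The block called 3, 6 and 7 of the 10 genes, and 1242, 2881 and 5445 in all, in the knockdown without ATRA and in ATRA in shNC and in shKDM3B cells. In the knockdown without ATRA the 3 were DUSP6, SPRED1 and DUSP16, with edgeR adjusted p of 0.000135, 0.00607 and 0.0330 under the block.

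Leaving out 1 library at a time, the knockdown without ATRA called 1 to 3 of the 10 genes and 943 to 1650 in all, and with ATRA 0 to 4 and 134 to 5360. ATRA called 4 to 7 of the 10 in shNC cells, with 1462 to 5142 genes in all, and 6 to 7 in shKDM3B cells, with 4953 to 5866 in all, and the difference in response 1 to 2 of the 10 and 285 to 2432 in all. The KDM3B change ran from -1.84 to -1.13 in the knockdown with ATRA, from -0.59 to 0.073 and from -0.65 to -0.42 for ATRA in shNC and shKDM3B cells, and from -0.64 to 0.068 for the difference. Signs that turned belonged to results that were not called on all libraries. In the knockdown without ATRA these were DUSP1 (-0.25 to 0.94), DUSP2 (-0.96 to 0.35), SPRED2 (-0.22 to 0.035) and SPRY2 (-0.23 to 0.27), and with ATRA DUSP2 (-0.58 to 0.11) and DUSP16 (-0.072 to 0.22). They were SPRED2 (-0.075 to 0.012) for ATRA in shNC cells, and DUSP16 (-0.49 to 0.14) and SPRED2 (-0.26 to 0.033) in shKDM3B cells. For the difference they were DUSP2 (-0.62 to 0.69), DUSP4 (-0.95 to 0.26), DUSP6 (-0.048 to 0.57), SPRED1 (-0.10 to 0.44) and SPRED2 (-0.20 to 0.087). A fit that leaves a group with 1 library assumes that it varies as the others do.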
